A study of Eutrema with 12 samples.

Results

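ZEP is the name on the array for zeaxanthin epoxidase, and its transcripts were followed in cauline leaves of Thellungiella salsuginea (Yukon ecotype) from the field and from growth cabinets. All spots with this name were taken, whatever their spot letter. They amounted to 9 of the 13449 cDNA spots on each array and to 1 of its 4279 cDNA identifiers. ZEP was chosen by its ratios of field over cabinet, which were known from earlier work on these arrays, so these ratios are given as a description and without a test. The field material came from individual plants in their Yukon habitat under ambient conditions, 3 harvested in 2003 and 3 in 2005. Letters A to C name the plants within a year, and the letter of the final plant of 2005, C in the sample records but D in the design text, was read as C. The age of the field plants is not given. The control for every field plant was cauline leaf RNA of untreated cabinet plants of the same ecotype at an age of 12 weeks, grown under a 21 h daylength at 22°C by day and 10°C by night. Each field plant was compared with the cabinet RNA on 2 arrays with the dyes Cy3 and Cy5 exchanged, which gave 12 arrays. None of the 28 gene names on the array is that of a leaf marker, so the labelled tissue was not checked against markers.

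Zeaxanthin epoxidase is a chloroplast enzyme that adds epoxide groups to zeaxanthin and so forms antheraxanthin and then violaxanthin. Violaxanthin de-epoxidase runs the opposite reactions in strong light, and this xanthophyll cycle is known for its part in the safe loss of excess light energy from leaves. Violaxanthin is also a precursor of abscisic acid (ABA), the hormone of drought and salt responses, and the Arabidopsis gene for the epoxidase is called ABA1 because its mutants are deficient in the hormone.

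ZEP transcripts had a higher signal in the field RNA than in the cabinet RNA for 5 of the 6 plants. The log2 ratio of field over cabinet, averaged over all ZEP spots and both arrays of a plant, was -0.32 for plant A of 2003, 0.77 for plant B and 0.82 for plant C. In 2005 it was 0.89 for plant A, 1.24 for plant B and 0.94 for plant C. The plants of 2005 therefore lay close together, whereas 1 plant of 2003 had a lower ZEP signal in the field RNA. Expressed as fold, the field signal of ZEP was 0.802 of the cabinet signal for plant A of 2003 and 1.71 to 2.36 times the cabinet signal for the other 5 plants. According to the sample records, mRNA from the field was amplified ahead of labelling and that from the cabinet was not, so amplification and growth in the field cannot be told apart in any of these ratios. In whole leaves, a change in the number of cells with a transcript and a change in its amount per cell cannot be told apart either. It is not stated whether 1 cabinet RNA served several field plants.

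**Figure D1:**
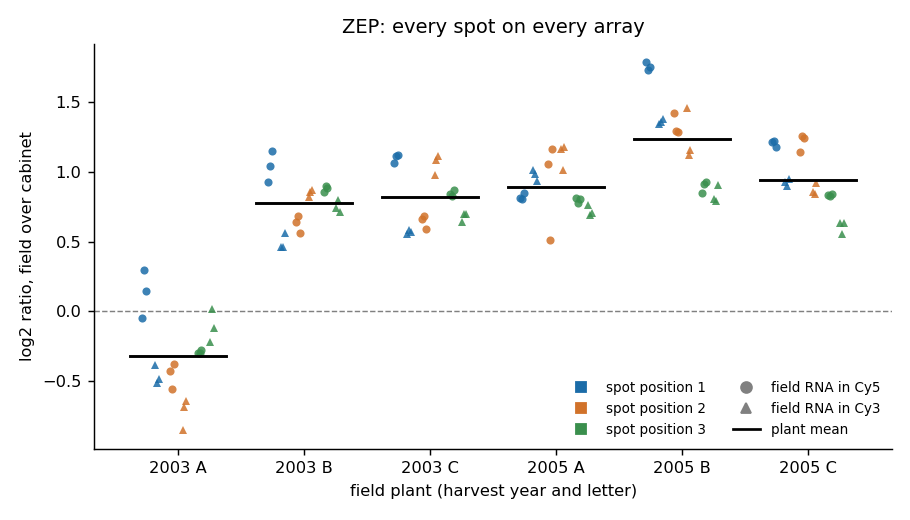
Log2 ratio of field over cabinet (vertical axis) for each of the 18 ZEP spot values of each field plant (horizontal axis), coloured by spot position, with circles where the field RNA carried Cy5 and triangles where it carried Cy3. Black lines are the plant means, from -0.32 (2003 A) to 1.24 (2005 B), and all values of the 5 plants other than plant A of 2003 lie above 0.

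The 9 ZEP spots of an array give 18 ratios per plant, and these did not straddle 0 except in plant A of 2003. For that plant the spot ratios ran from -0.85 through a median of -0.34 to 0.29, and 3 of 18 lay above 0. All 18 lay above 0 in each of the other plants. In 2003 the lowest and highest spot ratios were 0.46 and 1.15 for plant B and 0.55 and 1.12 for plant C. In 2005 they were 0.51 and 1.18 for plant A, 0.79 and 1.79 for plant B, and 0.56 and 1.26 for plant C. Thus even the lowest ZEP spot of these 5 plants exceeded the highest spot of plant A of 2003. A single ZEP spot of the 108, in plant A of 2003, was marked for exclusion by the scanner software and was kept, and no ZEP spot was saturated.

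Averaged over spots, the measured intensities behind the ratios were well above background. On the linear scale of the scanner, before background correction, ZEP spots of plant A of 2003 averaged 1674 in the field channel and 3923 in the cabinet channel. For plants B and C of 2003 the averages were 4058 against 2783 and 7561 against 5682. For the plants of 2005 they were 10131 against 6301 (A), 8588 against 4907 (B) and 9078 against 5779 (C). The field channel was the brighter one in 5 plants and the dimmer one in plant A of 2003, in the raw intensities as in the normalised ratios. ZEP spots were 28.0 times (field) and 20.5 times (cabinet) as bright as their local background in the geometric mean over arrays, which exceeded 65.5% and 50.9% of the cDNAs, respectively. Unnamed spots, whose content is not given, were 3.43 times as bright as background in either channel.

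The mean log2 ratio of ZEP was 0.42 ± 0.64 (SD, n = 3 plants) in 2003 and 1.02 ± 0.19 (SD, n = 3 plants) in 2005, which correspond to 1.34-fold and 2.03-fold. The years differed by 0.60. Their plants did not overlap, since the highest plant of 2003 was at 0.82 and the lowest of 2005 at 0.89, and 34.8% of all cDNAs likewise had years that did not overlap. The difference between the years rested largely on plant A of 2003. Without it the mean of 2003 was 0.80 and the difference between the years 0.23, while without plant B or plant C of 2003 the mean of that year was 0.25 or 0.23. Over all 6 plants the mean was 0.72 ± 0.54 (SD, n = 6 plants), or 1.65-fold.

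The rank of ZEP among the cDNAs of each plant again set plant A of 2003 apart. In plant A of 2003, 25.5% of the 4279 cDNAs had a lower ratio than ZEP. The share was 81.3% in plant B and 89.6% in plant C of 2003, and 90.6%, 89.4% and 88.3% in plants A, B and C of 2005. Plant B of 2005, which had the highest ZEP ratio, did not have the highest rank. By the year means, ZEP exceeded 78.1% of the cDNAs in 2003 and 90.3% in 2005.

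**Figure D2:**
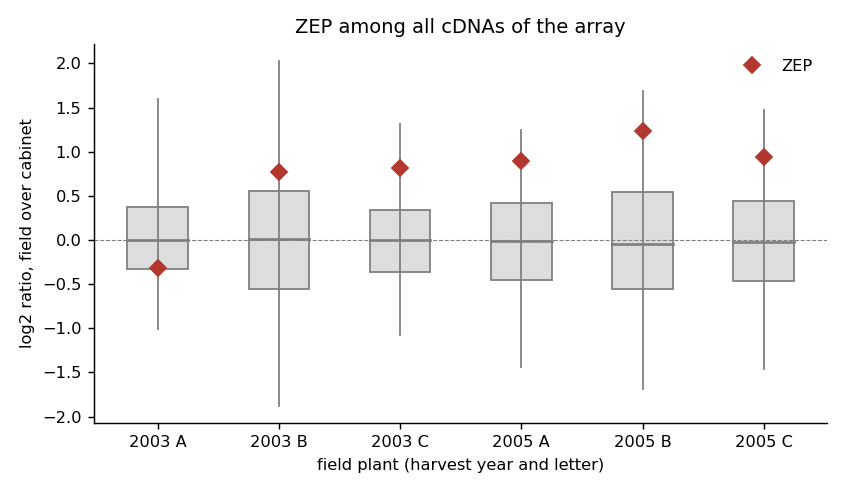
Log2 ratio of field over cabinet (vertical axis) for ZEP (diamonds) and for all 4279 cDNAs in each field plant (horizontal axis). Boxes run from the 25th to the 75th percentile with the median as a line, and thin lines from the 5th to the 95th; ZEP lies above the box in 5 plants and near its lower edge in plant A of 2003.

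Plant A of 2003 also stood apart in the other cDNAs. Its ratios over all cDNAs correlated with those of plants B and C of 2003 at r = 0.552 and 0.583, against 0.696 between B and C and 0.817 to 0.856 among the plants of 2005. These correlations run across cDNAs, which are not independent replicates, and the plants may share cabinet RNA. The 2 arrays of plant A of 2003 were scanned on different days and those of every other plant on a single day, and no scan day held both years. Each scan day of 2003 held 1 plant only, so day and plant cannot be told apart in that year. In 2005 plant A was scanned on one day at a ZEP ratio of 0.89, and plants B and C on another at 1.24 and 0.94.

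The ratio of ZEP was measured with both dye orientations in every plant. With the field RNA in Cy3 and in Cy5, respectively, plant A of 2003 gave -0.43 and -0.20, plant B 0.70 and 0.85, and plant C 0.77 and 0.86. The pairs for 2005 were 0.94 and 0.85 (A), 1.15 and 1.33 (B), and 0.80 and 1.08 (C). Plant A of 2003 was below 0 in both orientations and all other arrays were above 0. The ratio was higher with Cy5 on the field RNA in 5 of 6 plants, by a mean of 0.14 ± 0.13 (SD, n = 6; exact two-sided sign-flip permutation test, p = 0.0625, where the smallest possible is 0.03125). The median cDNA differed by 0.16 between the orientations in absolute terms, and 45.5% of the cDNAs differed by less than ZEP. A mean over both orientations was used for every plant, in which a dye effect cancels.

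ZEP was printed at 3 separate positions of the array, each with 3 neighbouring spots. Averaged over both arrays of a plant, the positions gave the same sign in every plant. On the single array of plant A of 2003 with the field RNA in Cy5, the first position was at 0.13, the second at -0.45 and the third at -0.29. The values that follow are means of both arrays. At the first position the log2 ratios were -0.17, 0.77 and 0.84 in plants A, B and C of 2003 and 0.90, 1.56 and 1.07 in 2005. At the second they were -0.59, 0.74 and 0.85 in 2003 and 1.02, 1.29 and 1.04 in 2005. At the third they were -0.20, 0.82 and 0.76 in 2003 and 0.76, 0.87 and 0.72 in 2005. The years did not overlap at the first and second positions, whereas at the third position plants B and C of 2003 lay within the range of 2005. The year means differed accordingly, at 0.48 ± 0.56 and 1.18 ± 0.34 for the first position, 0.33 ± 0.80 and 1.12 ± 0.15 for the second, and 0.46 ± 0.57 and 0.78 ± 0.075 for the third (2003 and 2005, SD, n = 3 plants). The 3 pairs of positions were compared by exact two-sided sign-flip permutation tests over the 6 plants, whose smallest possible p is 0.03125 before adjustment, and none passed. In 2005 alone, the third position was the lowest in all 3 plants. The largest mean difference was 0.21, by which the first position exceeded the last in 5 of 6 plants (exact permutation p = 0.09375, adjusted over the 3 pairs p = 0.28125). The first position exceeded the second by 0.10 (4 of 6 plants, adjusted p = 0.4375) and the second exceeded the third by 0.10 (4 of 6 plants, adjusted p = 0.4375). These positions share the array and the RNA and count as 1 measurement of each plant.

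The positions differed far more in brightness than in ratio. The third was the brightest, with median intensities of 15939 (field) and 9298 (cabinet), against 2892 and 1998 at the first position and 1874 and 1826 at the second. All 3 positions were brighter than the unnamed spots in both channels on 12 of 12 arrays. The dimmest single spot, at the second position in the cabinet channel of plant A of 2005, was 3.98 times as bright as background. Their order also changed with the year of the arrays. Relative to the median cDNA spot of the array, on the log2 scale and after background correction, the second position was at 0.45 ± 0.66 in 2003 and -1.04 ± 0.19 in 2005 in the field channel and at 0.17 ± 0.32 and -2.10 ± 0.21 in the cabinet channel (SD, n = 3 plants). At the third position both channels were brighter in 2005, at 2.79 ± 0.16 against 1.42 ± 0.47 in the field channel and 1.71 ± 0.19 against 0.96 ± 0.24 in the cabinet channel. Both channels of these positions were thus brighter, or dimmer, together on the arrays of 2005, while the mean ratio of field over cabinet was higher in 2005 at all 3 positions.

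**Figure D3:**
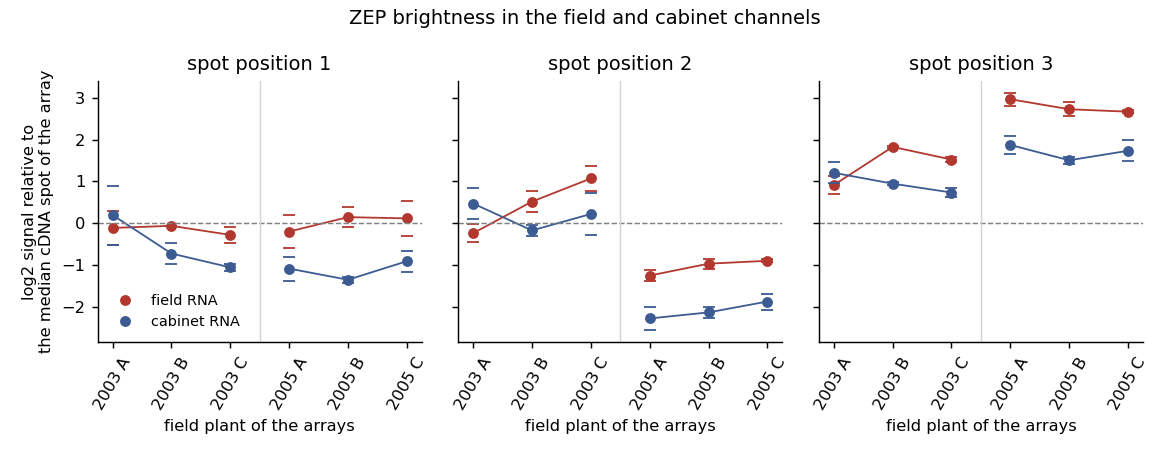
Log2 signal of ZEP relative to the median cDNA spot of the array (vertical axis) at each of the 3 spot positions (panels), for the field RNA and the cabinet RNA hybridized with each field plant (horizontal axis). Points are means of the 2 arrays of a plant and dashes the single arrays. The field RNA lies above the cabinet RNA except in plant A of 2003, and the second position is dimmer and the third brighter in 2005, in both channels.

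Averaged over positions, the 2 sets of arrays were further apart in the cabinet channel of ZEP than in the field channel. The cabinet signal relative to the median cDNA spot was 0.62, 0.01 and -0.04 on the arrays of plants A, B and C of 2003, and -0.50, -0.66 and -0.35 on those of 2005. The field signal was 0.19, 0.76 and 0.77 in 2003 and 0.50, 0.63 and 0.63 in 2005. The cabinet signal was therefore lower on every set of 2005 arrays than on any of 2003, whereas the field signals overlapped. The mean cabinet signal was 0.20 ± 0.37 in 2003 and -0.51 ± 0.16 in 2005 (SD, n = 3 plants), a difference of -0.71 that is given without a test, since this channel is part of the ratio by which ZEP was chosen. The mean field signal was 0.57 ± 0.33 in 2003 and 0.59 ± 0.073 in 2005 (SD, n = 3 plants). The cabinet and field means both average positions that moved in opposite directions. In the field channel the second position was lower in 2005 (-1.04 against 0.45) and the third higher (2.79 against 1.42). In the cabinet channel the first (-1.12 against -0.53) and second (-2.10 against 0.17) were lower in 2005 and the third higher (1.71 against 0.96). A single channel depends on the amount of DNA printed at a spot as well as on the RNA, and the 2 cannot be told apart here. Plant A of 2003 had both the highest cabinet signal of ZEP and the lowest field signal.

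The spread of ZEP was smallest between neighbouring spots and largest between the plants of 2003. The pooled SD of the log2 ratio was 0.090 within the 36 sets of triplicate spots, 0.13 between the dye orientations of a plant and 0.20 between the positions of a plant. Between plants it was 0.19 in 2005 and 0.64 in 2003. The 2003 spread of ZEP exceeded that of 76.8% of the cDNAs, whose median SD was 0.38, and the 2005 spread exceeded that of 38.5%, with a median SD of 0.24.

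Few other gene names on the array are those of ABA synthesis or ABA response. The genes behind the 4251 clone names are not given, so such genes among the clones could not be counted. A list taken from the names on the array held ZEP and AAO3, which in Arabidopsis encodes the aldehyde oxidase of the last step of ABA synthesis, together with AA03, a spelling kept apart. It further held RD20, COR15, DEHYDRIN, DEHDRIN, CBF, CBF1 and DREB1A, genes of dehydration and cold response, for 10 cDNAs in all. A cDNA was called where limma gave a Benjamini-Hochberg adjusted p under 0.05 over all 4279 cDNAs and the change was at least 1.5-fold. ZEP was left out of the counts because its ratio had served to choose it. In 2003, 1 of the other 9 was called higher and none lower, against 17.4% of all cDNAs (10.0% higher and 7.31% lower). In 2005, 2 of the 9 were called higher and none lower, against 31.5% of all cDNAs (16.4% higher and 15.1% lower). The median log2 ratio of the 9 was 0.02 in 2003 and 0.05 in 2005, and that of all cDNAs was -0.0028 and -0.028. None of the 9 was called for the difference between the years with limma, where 1.59% of all cDNAs were called (0.771% higher and 0.818% lower) and 2 of the 9 (RD20 and COR15) had an unadjusted p under 0.05. With the plant letter as a replicate block, 1 member (COR15) was called for that difference.

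The other cDNAs named for ABA synthesis did not follow ZEP in size. AAO3 had log2 ratios of -0.28, -0.07 and 0.28 in plants A, B and C of 2003 and of 0.18, 0.28 and 0.24 in 2005. It was higher in the field RNA in all 3 plants of 2005 but by less than 1.5-fold, with a mean of 0.23 ± 0.049 (SD, n = 3; limma adjusted p = 0.256), and its mean in 2003 was -0.02 ± 0.28 (adjusted p = 0.926). AA03 had ratios of 0.09, 0.31 and -0.09 in 2003 and 0.15, -0.27 and 0.18 in 2005, and was not called in either year (adjusted p = 0.670 and 0.926). AAO3 spots had 4.07 and 4.27 times the brightness of the background in the field and cabinet channels and AA03 spots 3.03 and 3.18 times. Both were far below the average of ZEP over its positions. The offset added to both channels in the background correction draws the ratios of dim spots toward 0.

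Of the list members other than ZEP, RD20 and COR15 were called in at least 1 year. RD20, which encodes a caleosin induced by dehydration and ABA in Arabidopsis, had log2 ratios of 2.74, 3.12 and 1.51 in 2003 and 1.29, 0.82 and 0.93 in 2005. It rose in both years, with a mean of 2.46 ± 0.84 (SD, n = 3; limma adjusted p = 0.00778) in 2003 and 1.01 ± 0.25 (adjusted p = 0.0408) in 2005. Its years did not overlap, as was so for 34.8% of all cDNAs, and ran opposite to those of ZEP. The difference of -1.44 did not pass the limma test (adjusted p = 0.102). COR15, which encodes a protective chloroplast protein of the cold response in Arabidopsis, had ratios of 1.44, 0.49 and 0.36 in 2003 and 3.19, 1.83 and 3.64 in 2005. It rose in 2005, with a mean of 2.89 ± 0.94 (adjusted p = 0.00351), and not by the test in 2003, with a mean of 0.76 ± 0.59 (adjusted p = 0.185). Its difference of 2.13 between the years ran in the direction of ZEP but did not pass the test (adjusted p = 0.0727). Plant A of 2003, the lowest plant for ZEP, was the highest of its year for COR15. COR15 spots were 8.15 times as bright as background in the field channel but 3.60 times in the cabinet channel, close to the 3.43 times of unnamed spots, and their positions disagreed more (pooled SD 0.70 between positions, against 0.20 for ZEP and for RD20). The call of RD20 in 2005 was lost without any 1 plant of that year, under print-tip loess, with the arrays that had the field RNA in Cy5 alone, and at an unadjusted p under 0.01, and its call in 2003 was lost when that year was fitted alone. The call of COR15 in 2005 was kept without any 1 plant of that year and under print-tip loess, with Cy5 alone and at the unadjusted p.

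The remaining list members lay near 0. DEHYDRIN and DEHDRIN, named for proteins that protect cells during water loss, and CBF, CBF1 and DREB1A, named for transcription factors of the cold and drought response, had year means between -0.10 and 0.15 and were not called in either year. These 5, AAO3 and AA03 made up the 7 list members under 5 times the background in both channels. CBF and AA03 were no brighter than the unnamed spots.

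**Figure D4:**
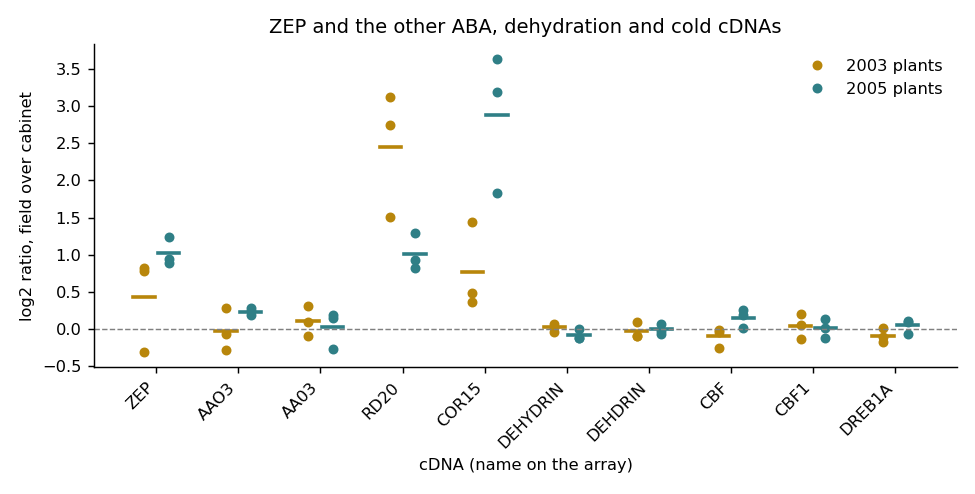
Log2 ratio of field over cabinet (vertical axis) for ZEP and the other 9 cDNAs of the ABA, dehydration and cold list (horizontal axis). Points are the 3 plants of 2003 and the 3 of 2005, and bars their means. ZEP, COR15 and CBF were higher and RD20 was lower in 2005 with no overlap between the years. Of all cDNAs, 34.8% had years that did not overlap. The 7 dim cDNAs, CBF among them, lie near 0.

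Among the other 27 gene names, the pattern most like that of ZEP over the 6 plants was that of AAO3, at a Pearson r of 0.882 and a Spearman rho of 0.657. AOX1A, named for the mitochondrial alternative oxidase, followed at r = 0.842 (rho 0.886), and RAFL28-19G15, a name without an annotation here, at r = 0.796 (rho 0.943). These values describe the order of 6 plants that share arrays, dyes and possibly cabinet RNA with ZEP. A high r did not mean a ratio of the same size. The root mean square difference from ZEP was 0.70 for AAO3, 0.57 for AOX1A and 0.35 for RAFL28-19G15, which had year means of 0.12 and 1.16. Without plants A of 2003 and B of 2005, the lowest and the highest for ZEP, r over the other 4 plants was 0.611 for AAO3, 0.893 for AOX1A and 0.924 for RAFL28-19G15. The most opposed gene name was STEROID SULFOTRANSFERASE at r = -0.886. AOX1A spots had 3.45 and 3.27 times the brightness of the background in the field and cabinet channels. STEROID SULFOTRANSFERASE spots had 3.28 and 3.47 times. Both names were thus close to the 3.43 times of unnamed spots, while RAFL28-19G15 was at 6.01 and 4.79 times.

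Clones without a gene name, which are far more numerous, included closer matches. The highest were cld15_g06 at r = 0.993 and cld25_f05 at r = 0.987, and 322 of the 4251 clones (7.57%) reached r = 0.8 or more, as did 2 of the 27 gene names. The year means were 1.11 and 1.57 for cld15_g06 and 0.07 and 0.28 for cld25_f05, so that the former had higher and the latter lower ratios than ZEP in both years. Without the same 2 plants r fell to 0.705 and 0.505.

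The ZEP ratios kept their sign in every plant under 7 other ways of correcting, normalising or averaging the spots. Plant A of 2003 then ranged from -0.52 to -0.29, and the lowest value of any other plant was 0.47, for plant B of 2003. Within each of the 7 settings the lowest plant of 2005 stayed above the highest of 2003, by 0.051 to 0.17. This did not hold for every part of the data. With the field RNA in Cy5 alone, plant C of 2003 (0.86) lay above plant A of 2005 (0.85). With Cy3 alone the years stayed apart, at 0.77 for plant C of 2003 and 0.80 for plant C of 2005. At the third spot position alone the years overlapped, as given above. Among the 7 settings, the 2003 mean changed most with the processed values deposited with the arrays. These put the 2003 mean of ZEP at 0.20 and the 2005 mean at 0.90.

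**Figure D5:**
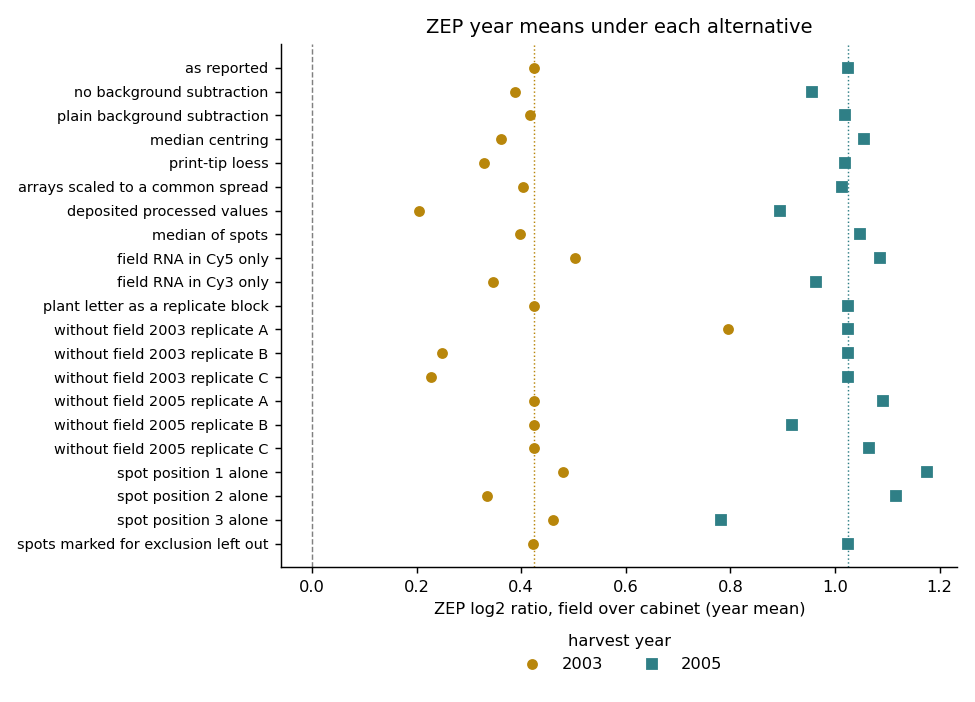
Mean log2 ratio of ZEP, field over cabinet (horizontal axis), in 2003 and in 2005 as reported and under each of 20 alternatives (vertical axis). Dotted lines mark the reported means of 0.42 and 1.02; all values lie above 0, and the 2003 mean moves most when plant A of that year is left out.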

How the data were processed

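The authors deposited scanner tables with the mean intensity of spot and surrounding background per channel, as linear values with no background subtraction or normalisation. The authors also deposited processed values on a log10 scale. These correlated with the log10 ratios of field over cabinet from the scanner intensities at r = 0.933 to 0.992 with slopes of 0.931 to 1.06, and served as an alternative. How they were normalised is not stated in the paper or labels. Their column medians, with the field RNA in Cy5 and in Cy3, were -0.0188 and -0.00559 for plant A of 2003, 0.000594 and 0.00164 for plant B, and -0.0180 and 0.000630 for plant C. For 2005 they were 0.0126 and 0.0110 for plant A, -0.000332 and 0.00605 for plant B, and -0.00377 and -0.00121 for plant C.

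In limma 3.58.1 (R 4.3.3), intensities were corrected for background (normexp, offset 50) and ratios were normalised within arrays by loess, with the 1239 control or unnamed spots of 14688 at weight 0 and then left out. Saturated spots (31 to 400 per array) were kept. Spots were averaged per cDNA, then the 2 arrays of a plant. One mean per year was fitted with a spread shared by both years (4 residual and 2.66 prior degrees of freedom), and the procedure was tested on simulated data. The number of arrays limits the precision. The limma p-values of this fit measure the spread between the ratios of the plants within a year. Whether a cabinet RNA was shared is unknown, so this spread may also hold differences between cabinet RNAs. Any differences between scan days of the same year are part of this spread too. No scan day held both years, so scan day and year cannot be told apart in the difference between the years. Exact permutation tests used scipy 1.17.1. The study's Bayesian model was not repeated.

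ZEP, the list and the tests were chosen with earlier results of these data known. The list was taken from array names matching genes of ABA synthesis and of ABA, dehydration and cold response. The cDNAs named as most like ZEP were the 3 gene names and the 2 clones with the highest Pearson r over the 6 plants. STEROID SULFOTRANSFERASE was named after its value was seen. Across cDNAs, the deviations of same-letter plants from their year means correlated at 0.576 for A, 0.243 for B and 0.314 for C, and those of other pairs at -0.331 to 0.0515, so the letter also entered as a replicate block. What the letter stands for across years is not stated.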

Additional observations from a re-analysis of the deposited data

Results flagged for a closer look

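CBF, named for a transcription factor of the cold response, was below 0 in all 3 plants of 2003, with log2 ratios of -0.04, -0.01 and -0.26, and above 0 in all 3 of 2005, with 0.01, 0.26 and 0.18. The years differed by 0.25 and every plant of one year lay opposite to those of the other, which is why it is listed here. Years without overlap were found for 34.8% of all cDNAs. The difference did not pass the test (limma adjusted p = 0.415), and CBF spots were no brighter than unnamed spots, at 2.78 times the background in the field channel and 2.85 times in the cabinet channel.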

How the results depend on the processing

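The 4 summaries of ZEP (mean of 2003, of 2005, of both, and the difference) kept their sign under each of 20 alternatives, with ranges of 0.20 to 0.80, 0.78 to 1.18, 0.55 to 0.91 and 0.23 to 0.80. The third spot position alone put the 2005 mean at 0.78, lower by more than the SD between plants. Leaving out the ZEP spot marked by the scanner software was chosen after seeing the data. The replicate block left the ZEP means as they were.

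Counts of called cDNAs were less stable than the ZEP ratios. For the difference between the years (68 called) they were 168 without background subtraction and 146 with plain subtraction. They were 290 with arrays scaled to a common spread and 127 from the deposited processed values (75 higher and 52 lower, against 33 and 35). The replicate block gave 353, and an unadjusted p under 0.01 gave 468. With the 12 arrays in place of the plants, the counts were 420 with scan day as a random block and 1241 as independent replicates. In 2003 (743 called) they were 1240 with 12 independent arrays and 0 with each year fitted alone, where limma gave 1118 at an unadjusted p under 0.05. Of the ABA, dehydration and cold list without ZEP, 12 independent arrays called 2 in 2003 and 2 for the difference. Each year alone called 0 in 2003. The replicate block and the unadjusted p under 0.01 each called 1 for the difference.

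With 1 plant left out in turn, 382 to 675 cDNAs were called in 2003 (382 without plant B of 2003, 457 without plant C and 471 without plant A of 2005), 452 to 1569 in 2005 (734, 452 and 570 without plants A, B and C of 2005) and 0 to 158 for the difference. The last was 7 without plant A of 2003, 158 without plant C of 2003, and 0 without any 1 plant of 2005, where limma gave 687 to 893 at an unadjusted p under 0.05. The list had 1 to 2 called in 2003 (2 without plant A), 1 to 3 in 2005 (1 without any 1 plant of 2005) and 0 to 1 for the difference, where RD20 was called without plant C of 2003. A filter on dim cDNAs left 4186 of 4279 and 8 of the 10 list members. Where an alternative moved a count, the cause was not tested.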
